A study of Arabidopsis thaliana with 24 samples.

Results

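ORA59 (AT1G06160) and 9 related transcription factor genes of Arabidopsis thaliana were followed across 8 groups of seedlings. The genes were chosen by name, with earlier results of these data known, as the rows of the gene count table for ORA59, ERF1 (AT3G23240), ERF15 (AT2G31230), ERF2 (AT5G47220), ERF5 (AT5G47230), ERF6 (AT4G17490), ERF104 (AT5G61600), ERF4 (AT3G15210), ERF13 (AT2G44840) and ORA47 (AT1G74930). All 10 were found among the 27416 genes of the table, and all 10 were among the 20109 genes that passed the filter on low counts and were tested. The labels give 24 libraries of total RNA from whole seedlings grown for 6 days and kept for 8 h with a compound or with mock solution. The groups were jaz9-1 with 2e, jaz9-1 with 12, jaz9-1 with 2, mock-treated jaz9-1, Col-0 with 2e, Col-0 with 12, Col-0 with 2 and mock-treated Col-0, with 3 libraries each and 5 to 8 seedlings pooled per library. Compound 2 is coronatine, a bacterial mimic of the plant hormone jasmonoyl-isoleucine, 2e is a stereoisomer of it, and 12 is named by the series text only as a derivative. The dose of 1 µM stands in the series text alone. Col-0 is the wild type, and jaz9-1 is a single T-DNA insertion line in JAZ9, a repressor of jasmonate signaling.

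Jasmonate signaling begins when the hormone, or coronatine in its place, joins the F-box protein COI1 to a JAZ repressor, which is then degraded, so that the transcription factors it held are released. These fall into the MYC branch, which serves wound and insect responses, and the ERF/ORA branch, which acts together with ethylene against necrotrophic fungi and drives the plant defensin gene PDF1.2. ORA59 and ERF1 stand at the head of the ERF/ORA branch. The ERF proteins bind the GCC box through their AP2/ERF domain, most group IX members activate transcription, ERF4 of group VIIIa represses it through an EAR motif, and ORA47 is a group II factor that activates jasmonate biosynthesis genes.

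The upstream sequences of the members are shown first because the proteins of both branches bind known short motifs. The 300 bases before the annotated start of each gene were read from the RefSeq assembly TAIR10.1 on the strand of the gene and searched on both strands for the GCC box (GCCGCC), which ERF proteins bind, and the G-box (CACGTG), which MYC2 binds. These motifs do not overlap. A G-box was found upstream of 4 of the 10 members, ORA59, ERF15, ERF2 and ERF4, and in 7.09% of the 27444 protein-coding genes. A GCC box was found upstream of 2 members, ORA59 and ERF15, and in 2.26% of these genes. ORA59 and ERF15 held both motifs in the same order, with 36 bases from the first base of the GCC box to the first base of the G-box in each. The stretches that hold both are given here 5′ to 3′ with the motifs in capitals, for ORA59 on the plus strand of chromosome 1 and for ERF15 on the minus strand of chromosome 2:
ORA59: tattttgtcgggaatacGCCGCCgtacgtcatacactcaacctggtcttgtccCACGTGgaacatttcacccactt
ERF15: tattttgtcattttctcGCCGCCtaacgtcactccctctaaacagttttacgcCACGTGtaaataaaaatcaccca
Laid side by side without gaps, 43 of these 76 bases were identical, including all bases of both motifs, by which the stretches were chosen and aligned. No chance level was computed for this count. The GCC box began 230 bases before the gene start in ORA59 and 224 bases before it in ERF15. ERF2, on the minus strand of chromosome 5, and ERF4, on the plus strand of chromosome 3, held a G-box nearer to their start, 39 and 64 bases before it, and no GCC box:
ERF2: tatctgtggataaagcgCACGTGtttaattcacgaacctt
ERF4: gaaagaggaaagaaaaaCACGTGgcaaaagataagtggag
The same members held each motif within 500 bases, and within 1000 bases ERF13 joined those with a G-box, at which length 14.8% of all protein-coding genes held it. A match is a string of letters in this window and was not tested as a binding site. The calls given below were tallied against the G-box after they were seen, and the tally differed between comparisons. With 2e against mock in Col-0, 4 of the 4 genes with a G-box and 1 of the 6 without it passed, with 12 these counts were 4 and 0, and with 2 they were 2 and 2. In jaz9-1 they were 3 and 0 with 2e, 3 and 0 with 12, and 2 and 1 with 2. For 2e against 2 in Col-0 they were 2 and 4, for 12 against 2 they were 2 and 2, and in jaz9-1 they were 3 and 3 for 2e against 2 and 3 and 2 for 12 against 2. Between jaz9-1 and Col-0 they were 4 and 0 under 2e and 4 and 0 under 12. Under 2 they were 3 and 1, and under mock 1 and 0. Over all tested genes, 2.75%, 3.05% and 23.1% passed with 2e, 12 and 2 in Col-0, and 1.97%, 2.5% and 29.2% in jaz9-1. For 2e and 12 against 2 these shares were 17.5% and 16.9% in Col-0, and 25.5% and 24.2% in jaz9-1. Between the genotypes they were 3.35%, 3.42%, 8.28% and 2.53% under 2e, 12, 2 and mock. The 4 genes with a G-box were also the most abundant members per kilobase in mock-treated Col-0. Their levels were 19.1 (ERF4), 9.77 (ERF15), 7.13 (ORA59) and 6.71 (ERF2) CPM per kb, with ERF104 next at 3.23. CPM are counts relative to the scaled library total. The part of abundance in this tally was not tested, and no share of all G-box genes that passed is given.

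**Figure D1:**
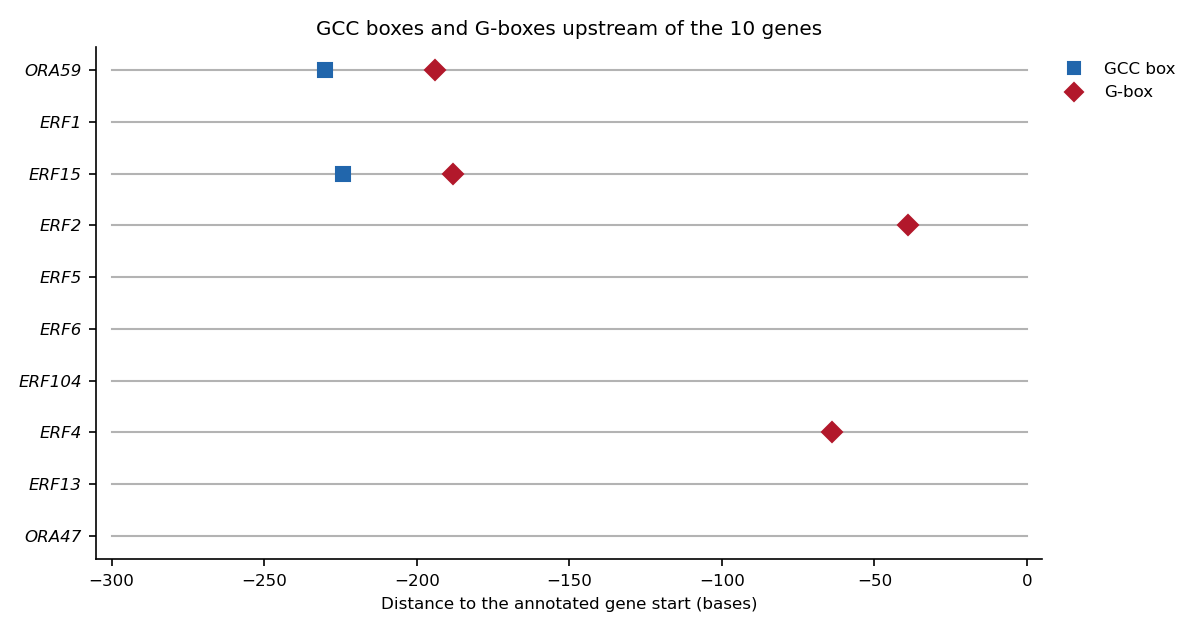
Positions of the GCC box (squares) and the G-box (diamonds) in the 300 bases upstream of the annotated start of each of the 10 genes; the x axis gives the distance of the first motif base to the start in bases. ORA59 and ERF15 carry both motifs 36 bases apart, ERF2 and ERF4 carry a G-box alone, and the other lines are empty.

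Library totals ranged between 6226126 and 29404141 counts, with 6226126 to 18460188 in jaz9-1 and 8626237 to 29404141 in Col-0. JAZ9 RNA was read as a check of the genotype. It was 6.13 ± 1.19 CPM (counts relative to the scaled library total) in jaz9-1 with 2e and 21.9 ± 4.62 CPM in Col-0 with 2e (SD, n = 3 each), and it was lower in jaz9-1 under every compound, by a log2 fold change of -1.83 under 2e, -1.45 under 12 and -2.05 under 2. In mock-treated seedlings it was 2.69 ± 0.802 CPM in jaz9-1 and 4.24 ± 1.07 CPM in Col-0, a difference that did not pass the test (log2 fold change -0.65). Against mock, JAZ9 RNA rose within jaz9-1 as well, by 1.255 with 2e, 1.296 with 12 and 4.064 with 2. In Col-0 these log2 fold changes were 2.433, 2.094 and 5.461, and all of them passed. The check therefore shows a lower level of JAZ9 RNA in jaz9-1 under the compounds and not its absence. Leaf and root markers were present in all libraries, with RBCS1A between 14900 and 25800 CPM and CASP1 between 13.7 and 35.6 CPM. Of the 2 petal and stamen genes, AP3 was at 0 in 15 of 24 libraries. PI was at 0 in only 1, with a median of 1.06 CPM and at most 3.31 CPM. The seed storage genes CRA1 and CRC summed to at most 1.97 CPM except in the second Col-0 libraries with 12 and with mock, where they reached 14.1 and 48.3 CPM. In whole seedlings, fewer cells of a type and less RNA per cell cannot be told apart. No stretch of 36 bases, the shortest read the authors kept, occurred a second time in the genome for any of the 10 genes, and ORA47 alone overlapped another annotated gene, on the opposite strand.

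The response to 2e in Col-0 asks which of the factors follow a stereoisomer of coronatine. ORA59, ERF2, ERF4, ERF15 and ERF5 rose, 5 of 10 members, where 2.75% of all tested genes passed the test in either direction in this comparison. Because the members were chosen with earlier results of these data known, such shares, here and below, are a description and no test of the set. A gene is said to pass, to rise or to fall, where its p-value from the edgeR quasi-likelihood test, adjusted over all tested genes, is below 0.1. ORA59 had 58.4, 44.6 and 61.3 CPM in the Col-0 libraries with 2e, against 6.8, 9.26 and 7.18 CPM in the mock libraries. The groups stood well apart, and the change was 2.83 on the log2 scale (SE 0.30, adjusted p = 4.35e-08). ERF2, a group IX activator, had 37.6, 34.5 and 38.5 CPM with 2e, against 11.3, 7.14 and 8.0 CPM with mock. Its log2 fold change was 2.07 (SE 0.26, adjusted p = 1.33e-06), the second highest among the members that passed. ERF4, the repressor, had 51.4, 55.6 and 59.4 CPM with 2e, against 23.6, 25.7 and 22.9 CPM with mock, so that its 3 treated libraries lay close together and above every mock library (log2 fold change 1.21, SE 0.13, adjusted p = 1.22e-07). ERF15, an activator that has been linked to abscisic acid and immunity, had 20.5, 22.2 and 19.5 CPM with 2e, against 8.81, 12.3 and 12.4 CPM with mock. The groups did not overlap, and the change was smaller (log2 fold change 0.89, SE 0.18, adjusted p = 0.00268).

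ERF5, a factor of chitin and growth responses, was the weakest of the 5. It had 4.41, 7.06 and 8.06 CPM with 2e, against 1.82, 1.67 and 3.97 CPM with mock (log2 fold change 1.34, SE 0.38, adjusted p = 0.0582). The third mock library lay near the lowest treated library, and the call was lost when the first or second mock library or the second or the third 2e library was left out (adjusted p = 0.325, 0.293, 0.199 and 0.281) and with all libraries thinned to equal depth (0.322).

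ERF1, which ethylene induces through EIN3 and which activates PDF1.2, had few reads. Its counts were 42, 45 and 58 in the Col-0 libraries with 2e, against 1, 0 and 9 in the mock libraries, or 1.81 to 2.77 CPM against 0.0 to 0.459 CPM. Every treated library exceeded every mock library. The ratio of the summed counts, corrected for library size, was 9.01 with a 95% counting interval of 4.76 to 19.2. Such an interval, here and below, covers counting error only and leaves out the spread between libraries. The edgeR test, which takes in that spread, did not pass (log2 fold change 3.37, SE 1.07, 95% interval 1.19 to 5.56, adjusted p = 0.119). ERF1 passed with DESeq2 (0.0263), with only these 2 groups in the fit (0.0163) and with no count filter (0.0114). In the fit with no count filter, here and below, each gene took the spread of the common trend in place of its own. ERF104, which is released from the kinase MPK6 upon flagellin perception, had 6.39 to 10.9 CPM with 2e and 2.4 to 6.02 CPM with mock (log2 fold change 0.83, adjusted p = 0.331). ERF6, a substrate of the kinases MPK3 and MPK6, ERF13, which acts in lateral root growth, and ORA47 had log2 fold changes of 0.20, 0.70 and -0.50 that did not pass. The median log2 fold change of the 10 members was 1.05, beside -0.00 over all tested genes.

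The response to 12 in Col-0 was measured against the same mock libraries, so that the values for 2e and 12 are not independent of each other. ORA59, ERF2, ERF4 and ERF15 rose, 4 of 10, where 3.05% of all tested genes passed. ORA59 had 50.7, 52.6 and 78.4 CPM with 12 (log2 fold change 2.98, SE 0.30, adjusted p = 1.77e-08), and ERF2 had 41.2, 34.2 and 37.8 CPM (2.1, SE 0.26, adjusted p = 1.01e-06). ERF4 had 53.0, 49.2 and 59.2 CPM (log2 fold change 1.16, SE 0.13) and ERF15 had 19.6, 23.0 and 26 CPM (1.03, SE 0.18). For all 4 genes the lowest library with 12 exceeded the highest mock library. ERF5, at 4.79 to 5.12 CPM, and ERF1, at 0.723 to 2.38 CPM, also lay above their mock libraries without passing (log2 fold changes 0.93 and 2.81, adjusted p = 0.309 and 0.243).

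Coronatine itself gave a partly different set of genes in Col-0, with ERF15 and ERF4 shared with 2e and 12. ERF13, ORA47, ERF15 and ERF4 rose, 4 of 10, where 23.1% of all tested genes passed, so that the share of members was closer to that of all genes than with 2e or 12. ERF13 had 10.2, 6.65 and 9.23 CPM with 2, against 0.671, 1.67 and 0.764 CPM with mock (log2 fold change 3.12, SE 0.63, adjusted p = 0.000302). ORA47 had 23, 20 and 23 counts with 2, against 0, 0 and 4 counts with mock. The 3 treated libraries were alike, and the ratio of summed counts was 11.2 with a counting interval of 4.16 to 42.1 (log2 fold change 3.70, SE 1.22, adjusted p = 0.0286). Without the first or the second mock library, both empty, the log2 fold change was 3.28 and 3.33 and did not pass (adjusted p = 0.123 and 0.112). ERF15 had 25.6, 24.4 and 19.5 CPM with 2 (log2 fold change 1.05, SE 0.18, adjusted p = 3.84e-05) and ERF4 51.0, 46.4 and 39.8 CPM (0.93, SE 0.13, adjusted p = 1.54e-06), levels near those with 2e and 12. ORA59 had 7.55, 15.8 and 12.8 CPM with 2 and overlapped its mock range. Its log2 fold change of 0.62 had a 95% interval of 0.01 to 1.24 and did not pass (adjusted p = 0.164), although it did without the first library with 2 (0.0455), with only the groups compared in the fit (0.0746) and with no count filter (0.00489). The last of these fits did not use the gene's own spread. ERF2 had at most 14.4 CPM with 2 and at most 11.3 CPM with mock (log2 fold change 0.43, adjusted p = 0.302). ERF6 had 0.843 to 1.11 CPM with 2, below all 3 mock libraries at 1.63 to 3.57 CPM, and lay just outside the threshold (log2 fold change -1.30, SE 0.55, adjusted p = 0.105). It passed with DESeq2 (0.0638), without the first mock library (0.0883) and without the 2 libraries of fewest counts (0.0999), and not without the second mock library (-0.95, adjusted p = 0.353).

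The second mock library of Col-0, which held most of the seed storage RNA, entered all 3 of these comparisons. Without it the log2 fold change of ORA59 was 2.96 with 2e, 3.11 with 12 and 0.76 with 2, and ORA59, ERF2, ERF4 and ERF15 still passed with 2e and with 12. Of the 9 marker genes tested, 1 was lower with 2e in Col-0 (the seed gene CRA1), 2 were lower with 12 (the leaf genes LHCB2.1 and CA1, -0.52 and -0.70) and 4 were lower with 2 (LHCB2.1, CA1, CRA1 and the root hair gene COBL9, -1.13). The summed root markers were 33.9 to 46.6 CPM with 2e, 22.0 to 31.9 CPM with 12 and 28.2 to 29.5 CPM with 2, against 35.3 to 37.6 CPM with mock. The summed leaf and cotyledon markers were 18700 to 20200, 16500 to 18900 and 18900 to 19800 CPM with 2e, 12 and 2, against 19500 to 20000 CPM with mock. Their part in the compound responses was not tested.

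**Figure D2:**
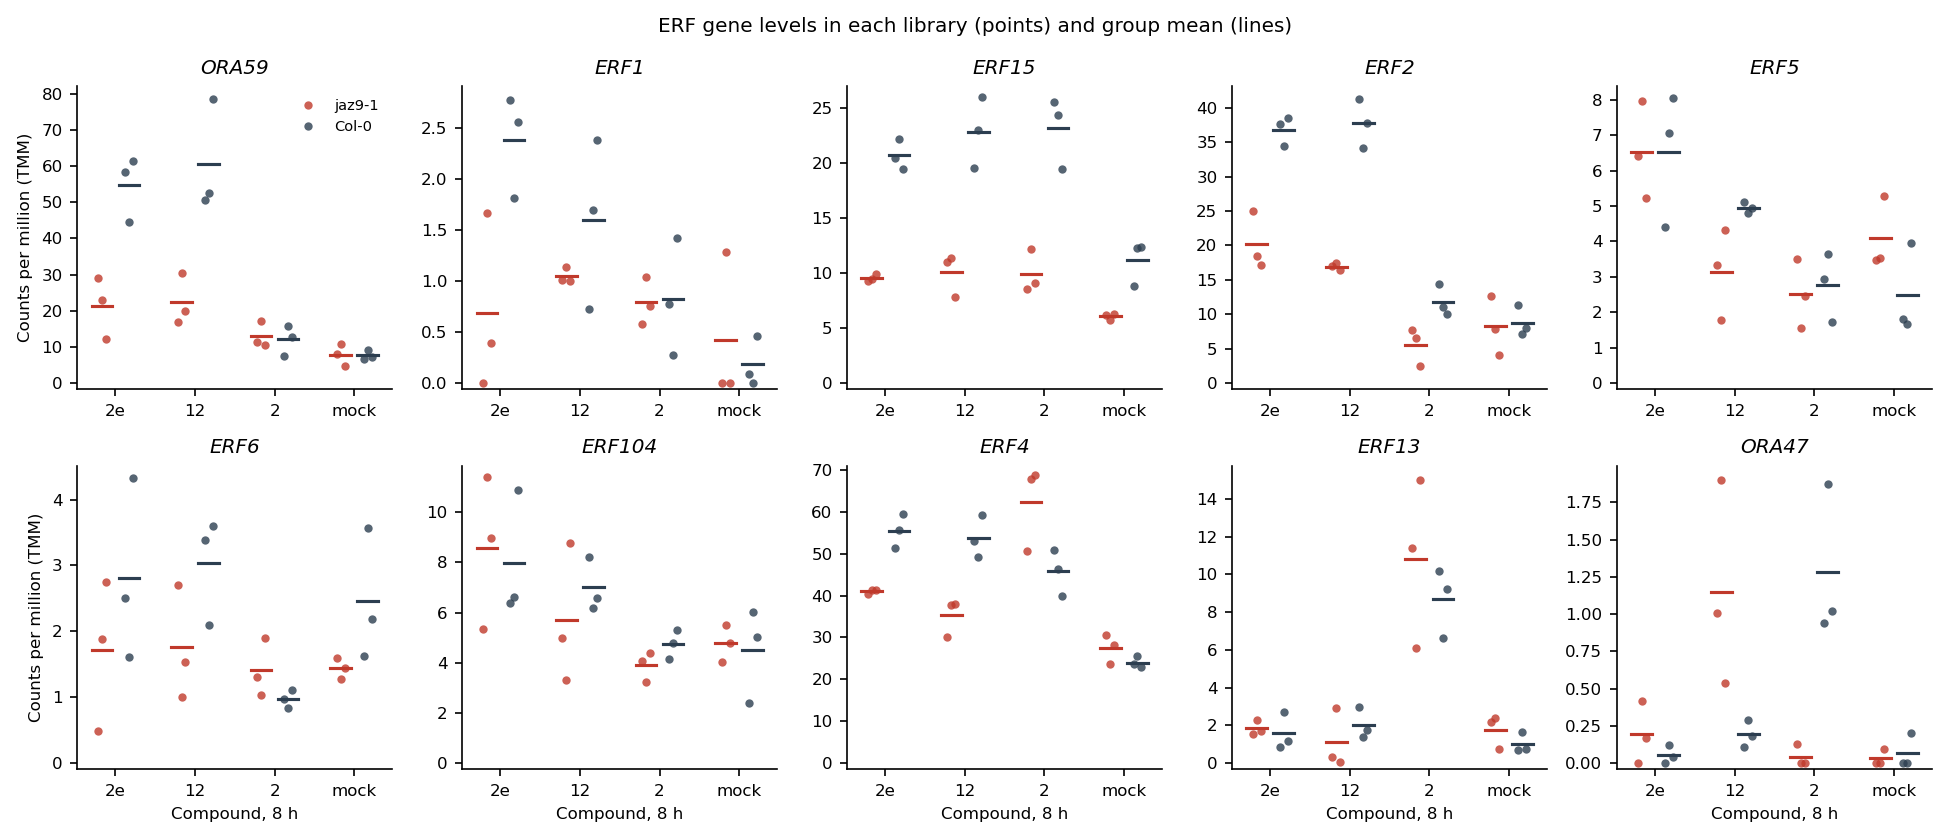
Normalized level of each of the 10 genes in CPM (y axis, from 0) under 2e, 12, 2 and mock (x axis), with 1 point per library and a line at the mean of 3 libraries, jaz9-1 in red to the left of Col-0 in dark blue. In Col-0, ORA59 lies between 44.6 and 78.4 CPM with 2e or 12 and between 6.8 and 15.8 CPM with 2 or mock, while ERF13 is highest with 2 in both genotypes.

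Compounds were then compared with each other directly, at the same dose and time, as 3 pairs in each genotype, with p-values adjusted over genes within each pair. In Col-0, 2e against 2 gave 6 of 10 members past the test, against 17.5% of all tested genes. ORA59 (log2 fold change 2.21, SE 0.28, adjusted p = 1.82e-07), ERF2 (1.64, SE 0.25), ERF5 (1.26, SE 0.37) and ERF6 (1.5, SE 0.54, adjusted p = 0.0618) were higher with 2e. ERF13 (-2.42, SE 0.57, adjusted p = 0.00243) and ORA47 were lower with 2e, ORA47 with 0, 3 and 1 counts under 2e and 23, 20 and 23 counts under 2. With all libraries thinned to equal depth, ERF5 and ERF6 no longer passed (adjusted p = 0.167 and 0.151) and ORA47 fell below the count filter. For 12 against 2 in Col-0, 4 of 10 passed, against 16.9% of all tested genes, with ORA59 (2.35, SE 0.28), ERF2 (1.67, SE 0.25) and ERF6 (1.60, SE 0.54, adjusted p = 0.0439) higher and ERF13 (-2.11, SE 0.57) lower with 12. ERF6 lost its call in both contrasts when any of several libraries was left out, with adjusted p-values of up to 0.363 for 2e and 0.142 for 12. ERF15 and ERF4 did not pass, with 95% intervals of the log2 difference between 2e and 2 of -0.51 to 0.20 and 0.02 to 0.54.

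Between 2e and 12 no member passed in Col-0, where 0 of the 20109 genes (0%) did with edgeR, 810 had an unadjusted p below 0.05 and DESeq2 called 9. Without the count filter, where the common trend stood in for the spread of each gene, edgeR called 137 genes higher and 46 lower with 2e among 25320. The interval of the log2 difference, 2e minus 12, was -0.67 to 0.38 for ORA59, -0.51 to 0.45 for ERF2, -0.49 to 0.22 for ERF15 and -0.21 to 0.31 for ERF4. For ERF1, at -1.26 to 2.39, and ORA47, at -4.10 to 0.90, the data allow differences of several fold. In jaz9-1 no member passed either, against 0.0646% of all tested genes, and the interval for ORA59 was -0.62 to 0.50.

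In jaz9-1, 2e against mock gave 3 of 10 members past the test, all higher, against 1.97% of all tested genes. ORA59 had 29.2, 23.0 and 12.1 CPM in the jaz9-1 libraries with 2e, against 8.11, 10.9 and 4.79 CPM in the mock libraries. The lowest treated library was just above the highest mock library (log2 fold change 1.40, SE 0.30, adjusted p = 0.00614). ERF2 had 25, 18.4 and 17.1 CPM, against 12.7, 7.89 and 4.12 CPM with mock (1.32, SE 0.27, adjusted p = 0.00325), and ERF4 had 40.5, 41.4 and 41.3 CPM, against 30.7, 23.6 and 28.1 CPM with mock (0.59, SE 0.13, adjusted p = 0.0125). The ERF4 call was lost without the second mock library (0.157). ERF15 had 9.33 to 9.89 CPM with 2e and 5.79 to 6.33 CPM with mock and did not pass (0.65, adjusted p = 0.125). ERF1, with 0, 24 and 7 counts under 2e and 0, 17 and 0 counts under mock, was uneven between libraries and did not pass (0.55, SE 1.03, adjusted p = 0.935).

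With 12 in jaz9-1, ORA59 (16.9, 30.4 and 20.0 CPM, log2 fold change 1.46, SE 0.30, adjusted p = 0.00366), ERF2 (17, 17.4 and 16.5 CPM, 1.08, SE 0.27, adjusted p = 0.0251) and ERF15 (11, 11.4 and 7.84 CPM, 0.72, SE 0.20, adjusted p = 0.0617) rose, 3 of 10 against 2.5% of all tested genes. ERF2 did not pass without the third mock library (0.232), and ERF15 lost its call without any of 5 of the 6 libraries compared, with adjusted p-values between 0.132 and 0.247. With 2 in jaz9-1, ERF4, ERF13 and ERF15 rose, 3 of 10 against 29.2% of all tested genes. ERF4 had 50.6, 67.9 and 68.7 CPM with 2, all above its mock libraries (1.18, SE 0.14, adjusted p = 2.57e-08), and ERF13 had 11.4, 6.09 and 15.0 CPM, against 2.17, 2.41 and 0.767 CPM with mock (2.59, SE 0.61, adjusted p = 0.00161). The ERF15 call (0.70, SE 0.21, adjusted p = 0.0118) was lost with only the groups compared in the fit (0.139). ORA59 (0.71, SE 0.32, adjusted p = 0.106) lay just outside the threshold and passed without the second mock library (0.0358), the first library with 2 (0.0896) or the third with 2 (0.0967), and with no count filter (0.00178). The last of these fits again did not use the gene's own spread. ERF2 did not pass (-0.41, adjusted p = 0.356). Of the 9 markers tested in jaz9-1, 0 passed with 2e or 12 by edgeR (2 with 2e and 3 with 12 had an unadjusted p below 0.05), and with 2 RBCS1A was higher (0.37) and the root genes CASP1 and CASP2 were lower (-0.61 and -0.90). The summed root markers were 35.1 to 48.8 CPM with 2e, 33.3 to 36.8 CPM with 12 and 31.4 to 38.0 CPM with 2, against 42.3 to 59.0 CPM with mock, and their part in these responses was not tested.

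**Figure D3:**
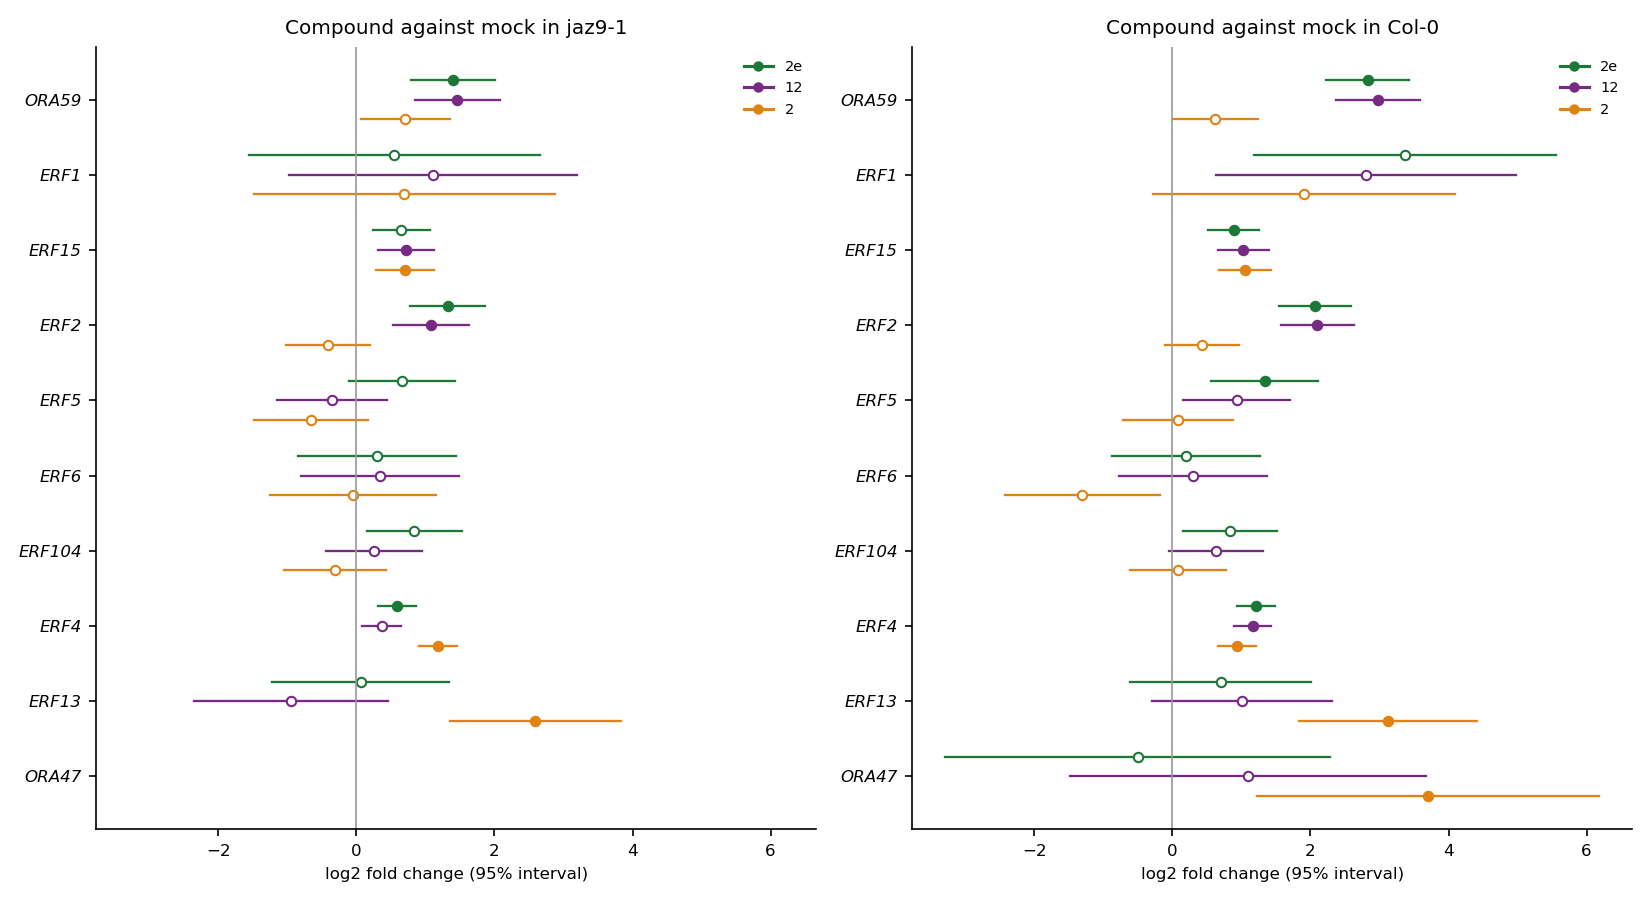
Log2 fold change of each gene for 2e, 12 and 2 against mock (x axis, with 95% intervals) in jaz9-1 (left) and Col-0 (right), filled where the adjusted p is below 0.1. ORA59 lies at 1.40 and 1.46 for 2e and 12 in jaz9-1 and at 2.83 and 2.98 in Col-0, and ORA47 is left out for jaz9-1 because its mock libraries held 1 count in all.

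ORA47 was too sparse in jaz9-1 for the size of a fitted fold change to be read. It is still counted among the members that passed for 12 against 2 in jaz9-1 and for jaz9-1 against Col-0 under 2. Its counts were 0, 6 and 3 with 2e, 19, 15 and 7 with 12, 2, 0 and 0 with 2, and 0, 0 and 1 with mock. The libraries with 12 stood above all others of jaz9-1. The ratio of summed counts was 31.6 for 12 against mock, with a counting interval of 5.37 to 1280.0, and 14.7 for 12 against 2, with an interval of 3.81 to 125, both covering counting error only. The edgeR test passed for 12 against 2 (adjusted p = 0.0372) and not for 12 against mock (0.103, but 0.0517 with DESeq2), and the call for 12 against 2 was lost without the second or the third library with 2 or the second with 12 (0.127, 0.111 and 0.12).

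Within jaz9-1, 2e against 2 gave 6 members past the test, against 25.5% of all tested genes, and 12 against 2 gave 5, against 24.2%. ERF2 (log2 fold change 1.73, SE 0.28 for 2e and 1.49, SE 0.28 for 12) was higher than with 2, and ERF4 (-0.59, SE 0.13 and -0.82, SE 0.13) and ERF13 (-2.53, SE 0.59 and -3.54, SE 0.65) were lower. ERF5 (1.33, SE 0.40) and ERF104 (1.15, SE 0.35) were higher with 2e than with 2. For 12 against 2 they did not pass (0.31 and 0.56), and the direct contrast of 2e with 12 did not pass either (1.02, adjusted p = 0.596, and 0.58, adjusted p = 0.783). The ERF104 call was lost without the second 2e library (adjusted p = 0.116). ORA59 passed narrowly in both (0.69, adjusted p = 0.0954, and 0.75, adjusted p = 0.0716) and did not with DESeq2 (0.172 and 0.129).

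The genotypes were compared under each treatment to ask how the levels of the factors differed between jaz9-1 and Col-0. With a single insertion line, the part of JAZ9 and that of other differences of the line cannot be told apart. Under 2e, ORA59, ERF15, ERF2 and ERF4 were lower in jaz9-1, 4 of 10 members against 3.35% of all tested genes. ORA59 reached 29.2, 23.0 and 12.1 CPM in jaz9-1, against 58.4, 44.6 and 61.3 CPM in Col-0 (log2 fold change -1.37, SE 0.27, adjusted p = 0.00257), and ERF15 reached 9.33, 9.49 and 9.89 CPM in jaz9-1, against 20.5, 22.2 and 19.5 CPM in Col-0 (-1.11, SE 0.18, adjusted p = 0.000247). ERF2 had 17.1 to 25 CPM in jaz9-1 and 34.5 to 38.5 CPM in Col-0 (-0.88, SE 0.24, adjusted p = 0.0472), and ERF4 had 40.5 to 41.4 CPM in jaz9-1 and 51.4 to 59.4 CPM in Col-0 (-0.43, SE 0.13, adjusted p = 0.0739). None of these ranges overlapped. ERF1 had 0, 24 and 7 counts in jaz9-1 and 42, 45 and 58 counts in Col-0 and did not pass (-1.74, SE 0.95, adjusted p = 0.46). The ERF4 call was lost without any 1 of the 6 libraries (adjusted p = 0.103 to 0.299), and that of ERF2 without the first or the third of Col-0 or the second or the third of jaz9-1 (0.141 to 0.267).

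Under 12 the same 4 genes were lower in jaz9-1, against 3.42% of all tested genes. ORA59 had 16.9, 30.4 and 20.0 CPM in jaz9-1 and 50.7, 52.6 and 78.4 CPM in Col-0 (-1.45, SE 0.27, adjusted p = 0.00144), and ERF15 had 7.84 to 11.4 CPM in jaz9-1 and 19.6 to 26 CPM in Col-0 (-1.19, SE 0.18, adjusted p = 0.000164). ERF2 had 16.5 to 17.4 CPM in jaz9-1 and 34.2 to 41.2 CPM in Col-0 (-1.16, SE 0.25, adjusted p = 0.00639), and ERF4 had 30.2 to 38.0 CPM in jaz9-1 and 49.2 to 59.2 CPM in Col-0 (-0.61, SE 0.13, adjusted p = 0.00654). These 4 calls held without any 1 library. Leaving out the second jaz9-1 library with 12, which alone held 2.92 CPM of ERF13 where the others held 0.319 and 0.0769 CPM, brought ERF13 past the test as well (-3.18, adjusted p = 0.0151).

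Under 2 the picture differed. ORA59 had 11.5, 17.2 and 10.7 CPM in jaz9-1 and 7.55, 15.8 and 12.8 CPM in Col-0 (log2 fold change 0.15, 95% interval -0.45 to 0.75). ERF15 (-1.22, SE 0.19, adjusted p = 0.000166), ERF2 (-0.97, SE 0.28, adjusted p = 0.0358) and ORA47 were lower in jaz9-1 and ERF4 was higher (0.44, SE 0.13, adjusted p = 0.044), 4 of 10 against 8.28% of all tested genes. ORA47 summed to 2 counts in jaz9-1 and 66 counts in Col-0, a ratio of 0.0617 with a counting interval of 0.00732 to 0.232 (adjusted p = 0.0689, and 0.124 to 0.218 without any of 5 of the 6 libraries). The calls of ERF2, ERF4 and ORA47 were each lost without the 2 libraries of fewest counts, 1 of which is the third jaz9-1 library with 2. In mock-treated seedlings ERF15 alone was lower in jaz9-1, at 6.22, 5.79 and 6.33 CPM against 8.81, 12.3 and 12.4 CPM in Col-0 (-0.87, SE 0.20, adjusted p = 0.0158), where 2.53% of all tested genes passed. ERF15 was therefore lower in jaz9-1 under all 4 treatments. ORA59 in mock-treated seedlings had 4.79 to 10.9 CPM in jaz9-1 and 6.8 to 9.26 CPM in Col-0 (0.06, 95% interval -0.59 to 0.71).

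**Figure D4:**
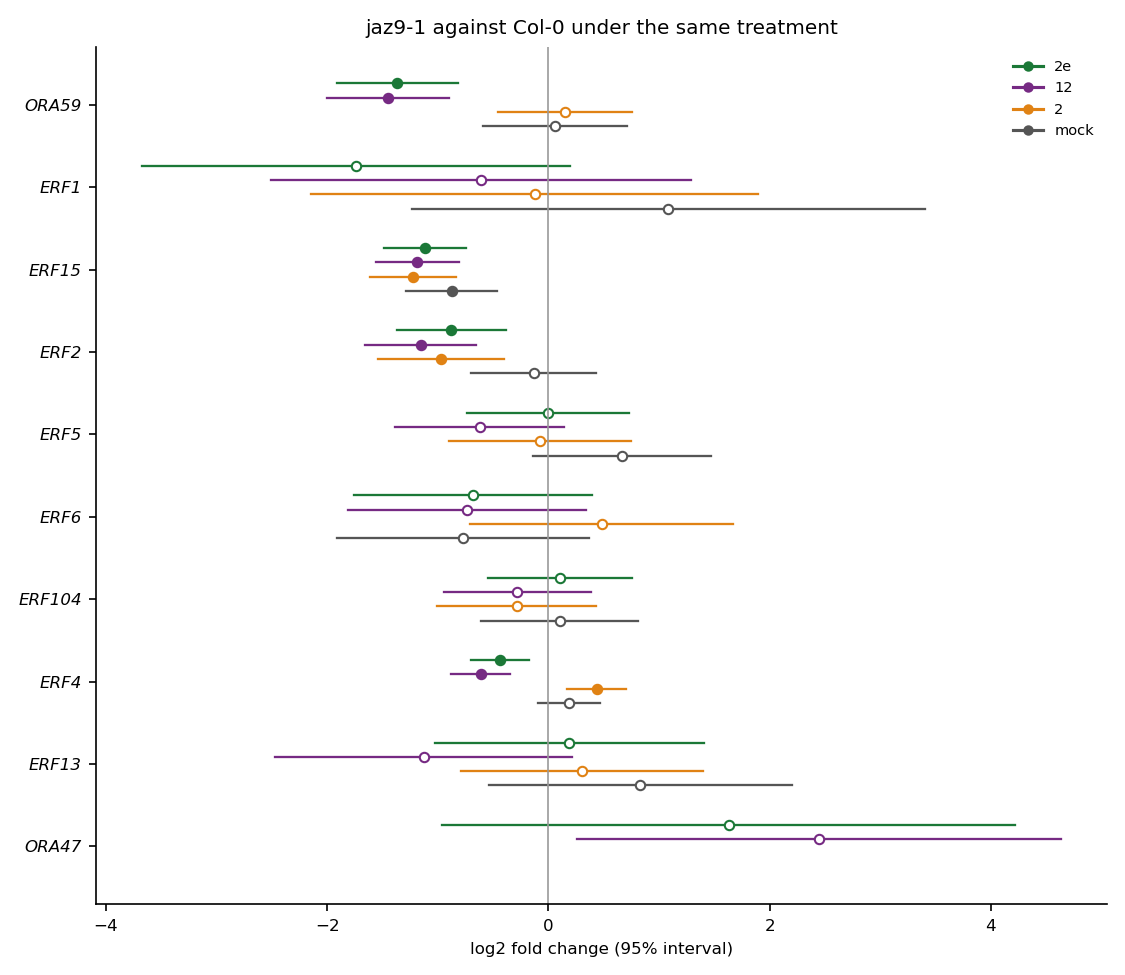
Log2 fold change of jaz9-1 against Col-0 (x axis, with 95% intervals) for each gene under 2e, 12, 2 and mock, filled where the adjusted p is below 0.1. ERF15 lies between -1.22 and -0.87 under all 4 treatments, ORA59 at -1.37 and -1.45 under 2e and 12 and at 0.15 and 0.06 under 2 and mock; ORA47 is left out under 2 and mock, where a group held at most 3 counts.

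Over the 8 groups, the mean of ORA59 was highest in Col-0 with 12 (60.6 CPM) and with 2e (54.8 CPM), whose ranges overlapped. A gap followed. The other groups ran in the order jaz9-1 with 12 (22.4 CPM), jaz9-1 with 2e (21.4 CPM), jaz9-1 with 2 (13.1 CPM), Col-0 with 2 (12.1 CPM), mock-treated jaz9-1 (7.93 CPM) and mock-treated Col-0 (7.75 CPM), and each overlapped the next. Per kilobase of gene, ERF4 was the most abundant member in mock-treated Col-0 (19.1 CPM per kb) and ORA59 in Col-0 with 2e (50.4 CPM per kb). The lead of ORA59 rests on division by gene length. In CPM, ERF4 (55.5) and ORA59 (54.8) were alike in Col-0 with 2e, with ranges of 51.4 to 59.4 and 44.6 to 61.3. Whether counts grow with gene length in these libraries was not tested.

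Whether a response differed between the genotypes was tested as the log2 fold change against mock in jaz9-1 minus that in Col-0. For ORA59 the difference was -1.43 (SE 0.42, 95% interval -2.28 to -0.58) for 2e and -1.52 (SE 0.42, -2.37 to -0.66) for 12, and neither passed after adjustment over all tested genes with edgeR (adjusted p = 0.744 and 0.376). No member passed for any of the compounds, where 0%, 0.00497% and 0.741% of all tested genes passed for 2e, 12 and 2, and 871, 1181 and 2298 genes had an unadjusted p below 0.05. With only the groups compared in the fit, ORA59 passed for 12 (-1.52, SE 0.34, adjusted p = 0.0747), and with DESeq2 ERF4 did (0.0911). With no count filter, ORA59 passed for 2e (2.39e-05) and for 12 (2.41e-06), with ERF2 (0.0606) and ERF4 (0.0175) for 12. That fit had an infinite prior degrees of freedom, so that each gene took the spread of the common trend in place of its own: the quasi-likelihood dispersion of ORA59 was 0.888, against 2.45 in the filtered fit, where the prior degrees of freedom were 15.4, and its SE was 0.25, against 0.42. For 2 the ORA59 difference was 0.09 (SE 0.44). Whether ORA59 responded less in jaz9-1 thus depended on the fit, while its lower level in jaz9-1 under 2e and 12 passed as given above.

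The leaf gene LHCB2.1 moved with the genotype too, with log2 fold changes of -1.11 under 2e, -1.07 under 12, -0.78 under 2 and -1.15 under mock, all past the test. Of the 10 marker genes, 9 were tested, and 1, 3, 3 and 3 of them passed between jaz9-1 and Col-0 under 2e, 12, 2 and mock. Under 2e the summed leaf and cotyledon markers were 17900 to 20200 CPM in jaz9-1 and 18700 to 20200 CPM in Col-0, and the summed root markers 35.1 to 48.8 CPM in jaz9-1 and 33.9 to 46.6 CPM in Col-0. Under 12 the root markers summed to 33.3 to 36.8 CPM in jaz9-1 and 22.0 to 31.9 CPM in Col-0. Their part in the genotype differences was not tested.

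Other genes of the pathway were taken from lists by role, which were drawn up with earlier results of these data known. Among 10 regulators above the branch, MYC2, the head of the MYC branch, rose under every compound in Col-0 (log2 fold change 1.39 with 2e, 1.15 with 12 and 3.75 with 2), and it was the only one of the 10 to pass with 2e or 12. EIN3 and EIL1, the ethylene factors that activate ERF1 and ORA59, had log2 fold changes of 0.13 and -0.02 with 2e, and with 2 EIN3 rose (0.43) and EIL1 fell (-0.42). The median of the list was -0.02 with 2e, where that of all tested genes was -0.00. Among 9 other group IX genes, 4 had enough counts to be tested, and ERF1A, a close relative of ERF2, rose with 2e (1.99, SE 0.16, adjusted p = 2.12e-10), 12 (1.63) and 2 (2.65) in Col-0. AT5G61590 and AT5G07580 rose with 2e (0.62 and 0.52) and fell with 2 (-0.58 and -0.62). Of 7 other group VIIIa genes, the family of ERF4, none passed with 2e or 12 in Col-0, and with 2 ERF3 rose (0.82) and ERF9 fell (-1.58). Of 5 group X genes tested, RAP2.6 rose with 2e (1.18), and RAP2.6, RAP2.6L and AT5G61890 rose with 2 (3.47, 2.18 and 4.61).

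The 9 defense genes below the branch include the defensins of the PDF1 family and AACT1, an acyltransferase gene. In Col-0, 8 of the 9 rose with 2e (median log2 fold change 4.48) and 8 with 12 (4.33), and 5 rose and 1 fell with 2 (2.34). In jaz9-1, 4, 3 and 7 rose, with medians of 1.36, 1.23 and 1.49. The shares of all tested genes that passed were 2.75%, 3.05% and 23.1% in Col-0 with 2e, 12 and 2, and 1.97%, 2.5% and 29.2% in jaz9-1. PDF1.2A had 2.33, 4.25 and 4.44 CPM in jaz9-1 with 2e and 58.0, 34.7 and 76.7 CPM in Col-0 with 2e (log2 fold change -3.90). Under 2e, 7 of the 9 were lower in jaz9-1, against 3.35% of all tested genes that passed in either direction. PDF1.2A rose with 2 in Col-0 as well (5.40), where ORA59 did not pass, to 37.8, 26.7 and 59.9 CPM, against 1.72, 0.892 and 0.56 CPM with mock. Reads of the PDF1 genes may be shared, since up to 8.8% of the 36-base windows of PDF1.2B occurred elsewhere in the genome.

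The 11 jasmonate biosynthesis genes, which ORA47 is known to bind or activate in part, rose together with 2. All 11 passed in Col-0 (median log2 fold change 3.43) and all 11 in jaz9-1 (median 3.46), against 23.1% and 29.2% of all tested genes. With 2e, 9 rose in each genotype (medians 0.94 in Col-0 and 1.02 in jaz9-1), against 2.75% and 1.97%. ORA47 itself summed to 66 counts in Col-0 with 2 and to 2 counts in jaz9-1 with 2. The part of ORA47 in these changes was not tested. AOS, which makes allene oxide from the fatty acid hydroperoxide, rose with 2 by 5.59 in Col-0 and by 5.44 in jaz9-1.

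**Figure D5:**
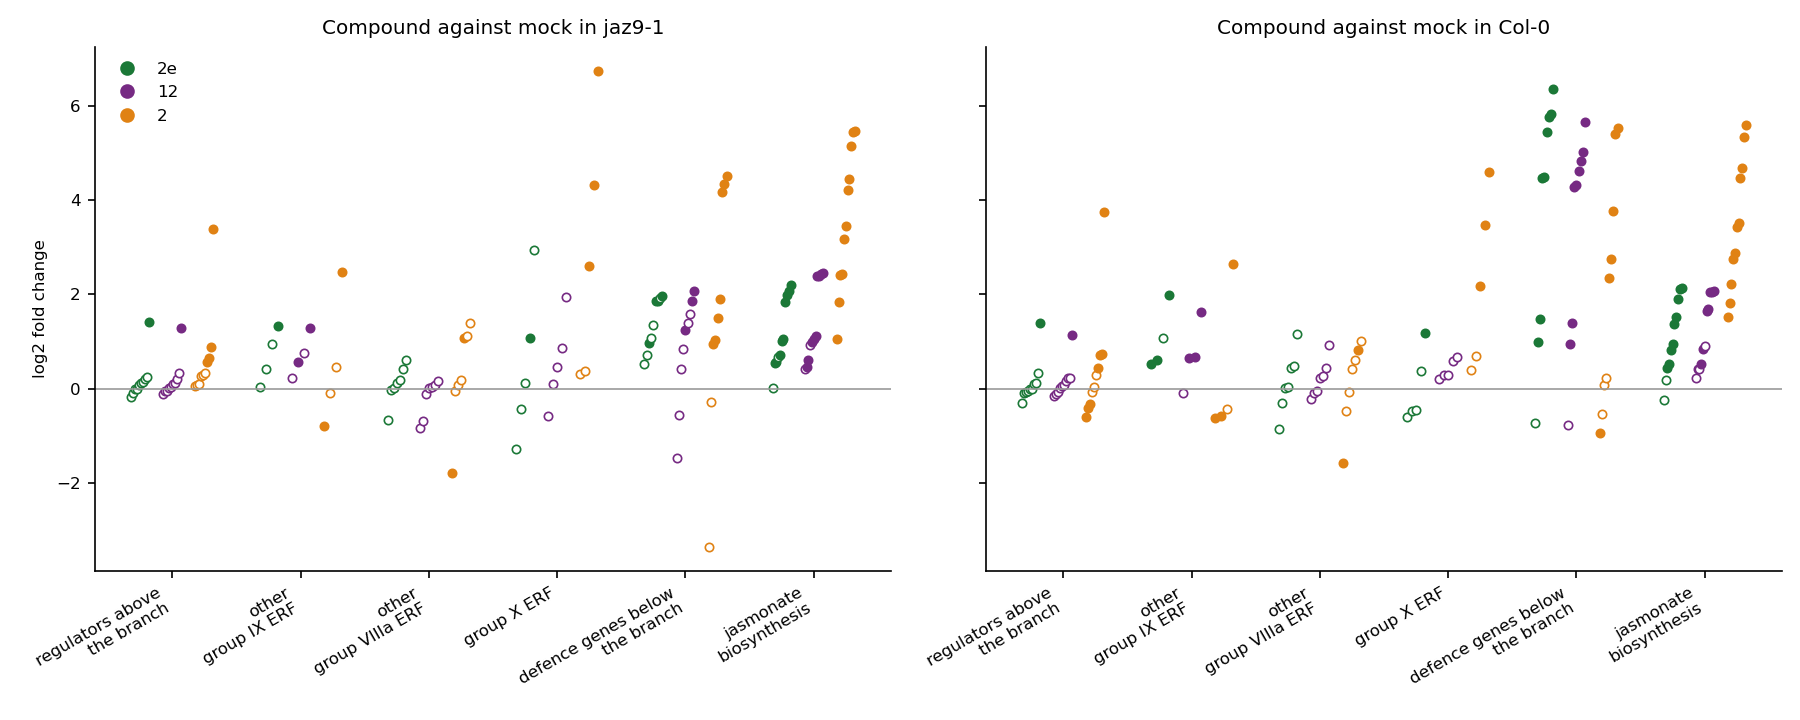
Log2 fold change against mock (y axis) of each tested gene of 6 lists for 2e, 12 and 2, in jaz9-1 (left) and Col-0 (right), 1 point per gene, filled where the adjusted p is below 0.1. The 9 defense genes have medians of 4.48 and 4.33 with 2e and 12 in Col-0 and of 1.36 and 1.23 in jaz9-1, while the 11 jasmonate biosynthesis genes are highest with 2 in both genotypes.

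The genes whose log2 CPM followed ORA59 most closely over the 24 libraries were PLA2A (Pearson r = 0.909), a lipid acyl hydrolase gene, AACT1 (0.905), AT1G15125 (0.897), a methyltransferase gene, SIB2 (0.873), which encodes a VQ-motif protein, and AT2G43590 (0.870), a chitinase gene. These correlations describe libraries that fall into 8 treatment groups, and depth and composition are shared by all genes of a library. Among the members, ERF2 followed ORA59 most closely (0.831), and the highest value between other members was that of ERF5 and ERF104 (0.735). For ORA47, whose counts are sparse, the highest values were 0.741 for BGLU6, 0.716 for CBL, 0.71 for AT2G34010, 0.699 for IQD20 and 0.687 for AT1G76740.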

How the data were processed

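The authors trimmed reads with Trimmomatic (the methods name paired-end sequencing and a single-end adapter file), keeping reads of at least 36 bases, aligned them with HISAT2 to TAIR10 and counted them with featureCounts per gene and strand, counting a read over several genes for each. The deposited values used here are these raw counts per gene, of 27416 genes in 24 libraries. The labels name both TruSeq and Lasy-Seq as the library method. A second deposited table, of counts divided by size factors, and its 8 unnamed values per gene were not used. The study describes the 3 libraries of a group as biological, independent replicates.

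Counts were filtered with filterByExpr, scaled by TMM and fitted in edgeR 4.0.16 (R 4.3.3, limma 3.58.1) with 1 coefficient for each of 8 groups. The quasi-likelihood F-test was two-sided, with Benjamini-Hochberg adjustment over 20109 genes in each of 19 comparisons and a threshold of 0.1. Alternatives were DESeq2 1.42.0, other scaling, filter, threshold and samples, a replicate block and leaving out each library. Counting intervals are exact, at 95%, and cover counting error only. Sequences came from RefSeq TAIR10.1, which matched 26719 of the gene identifiers.

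All 10 members are named, with JAZ9, the 5 genes most correlated with ORA59 and with ORA47 (log2 CPM, prior count 2), and up to 4 genes per pathway list by the lowest adjusted p. EIL1, ERF3 and AT5G61890 were named after their values were seen. Members and lists were chosen with earlier results of these data known.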

Additional observations from a re-analysis of the deposited data

How the results depend on the processing

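Of the counts of members called under an alternative, 282 stayed within 1.5 times the value given in the report and 21 did not, and of the tests of a single member 2862 kept their side of the threshold, 42 gained and 87 lost the call, with 0 changes of direction among called values. With all libraries thinned to equal depth, an alternative chosen after seeing the data, 3 members in place of 6 passed for 2e against 2 in Col-0. Without the 2 libraries of fewest counts, also chosen after seeing the data, 3 in place of 5 passed for 12 against 2 in jaz9-1, and 1 in place of 4 for jaz9-1 against Col-0 under 2, where 2 passed with only the groups compared in the fit. For the genotype difference in the response, where 0 members passed, 1 passed for 2e with no count filter, and for 12 there were 1 with DESeq2, 3 with no count filter and 1 with only the groups compared. Leaving out 1 library gave 1 to 3 members for 12 against mock in jaz9-1, 3 to 5 for 2 against mock in jaz9-1, 3 to 5 for 12 against 2 in jaz9-1, 2 to 3 for jaz9-1 against Col-0 under 2e and 1 to 4 under 2. The causes were not tested. Same-numbered libraries did not deviate together, with 0 of 84 correlations over 0.1 and 12 of 24 libraries closest to their own number, and a replicate block gave 5 in place of 4 members for 2 against mock in Col-0, with ERF6 at an adjusted p of 0.0971, 4 in place of 3 in jaz9-1, with ORA59 at 0.0855, and the same count in the other comparisons. For 2e against 12 in Col-0 the block called 5 genes higher and 1 lower of 20109. The members' summed counts of 477 to 5456 per library limit ERF1, ERF6, ERF13 and ORA47 most.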
